A study of Mus musculus with 4 samples.

Results

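Neurexins and neuroligins are adhesion proteins of the synapse. Of their genes, 5 were followed here in mouse cortex with a conditional deletion of *Qk*, which encodes the RNA-binding protein Quaking. The genes are *Nrxn2*, *Nrxn3*, *Nlgn1*, *Nlgn2* and *Nlgn3*, chosen by name out of 23038 genes quantified. Their alternative splicing events were found by gene identifier and number 15 of the 38240 events quantified, with 10 in *Nrxn2*, 3 in *Nrxn3*, 1 each in *Nlgn1* and *Nlgn2* and 0 in *Nlgn3*. Poly-A selected RNA of the cortex at E14.5 was sequenced from 2 control embryos and 2 *Qk* cKO embryos. Control embryos carried floxed *Qk* alleles without Cre (*Qk* fl/fl, called wild type in the sample labels). *Qk* cKO embryos were *Nestin*-cre:*Qk* fl/fl, so that Cre, driven by *Nestin* sequences in neural progenitors, deletes *Qk* in these cells and their progeny, while cells outside the neural lineage keep the gene. The tissue was whole cortex, a mixture of progenitors, neurons and other cells, and in such bulk samples fewer cells of a type and less RNA per cell cannot be told apart.

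Neurexins are mainly presynaptic transmembrane proteins that bind neuroligins on the opposite membrane, as well as LRRTM proteins, cerebellins, neurexophilins and dystroglycan. Each neurexin gene has an upstream promoter for a long alpha form and an internal promoter for a short beta form, and a few small exons at fixed places in the gene are included or skipped, which changes the partners that the protein can bind. Neuroligins recruit postsynaptic scaffolds and have small alternative exons of their own. Quaking belongs to the STAR family of RNA-binding proteins, and other members of that family (Khdrbs1, Khdrbs2 and Khdrbs3) are known for splicing the 90-nt exon of neurexins.

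The sequences that carry the splicing results are given first, read from GENCODE release M21 transcripts on GRCm38 (mm10), 5′ to 3′ on the strand of the gene. The first set is the exon of *Nrxn2* whose inclusion differed most between genotypes. It lies at chr19:6463824-6463847, on the plus strand, between exons of 302 and 162 nt, with introns of 8543 nt upstream and 8410 nt downstream. A second form of it ends 21 nt further on and is 45 nt long. The capitals mark the 24-nt exon between 20 nt of each neighbouring exon, and the skipped transcript joins these neighbours.
Nrxn2 24-nt exon included: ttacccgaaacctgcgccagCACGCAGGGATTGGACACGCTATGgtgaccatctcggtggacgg
Nrxn2 exon skipped: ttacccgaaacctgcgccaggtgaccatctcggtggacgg

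The second set holds the 27-nt exons of *Nrxn2* and *Nrxn3*, shown because those with an event lie at different places in the genes. In *Nrxn2* it lies at chr19:6488784-6488810 between exons of 204 and 120 nt, and in *Nrxn3* at chr12:89517906-89517932 between exons of 174 and 120 nt. *Nrxn3* has another 27-nt exon at chr12:89354453-89354479, between exons of the same lengths as in *Nrxn2*, for which the files hold no event. The capitals mark the 14 of 27 positions at which this exon differs from that of *Nrxn2*.
Nrxn2 27-nt exon: actgCCtGCgCGtCGGctgCGCACcca
Nrxn3 27-nt exon at the same place: actgTAtCAgGAtAAActgTAACTcca
Nrxn3 27-nt exon with an event: ttgcgttgaccaaagctgacctgcaag

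The last set holds the exon before the last of *Nrxn3*, at chr12:90283572-90283659, whose end varies by 9 nt (capitals), and the alternative exon of *Nlgn2*, at chr11:69830563-69830613 on the minus strand.
Nrxn3 88-nt form: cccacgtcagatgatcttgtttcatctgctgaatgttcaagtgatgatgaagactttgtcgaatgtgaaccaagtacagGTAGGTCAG
Nlgn2 51-nt exon: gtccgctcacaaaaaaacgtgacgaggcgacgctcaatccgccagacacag

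Libraries held between 37942046 and 42994832 tags on genes, a tag being the unit of fragments that the authors' software Quantas counted. The deletion was visible in both *Qk* cKO libraries, with 63 and 68 tags on the junction of *Qk* exons 2 and 3 against 635 and 565 in the controls. The level of *Qk* RNA as a whole was higher in *Qk* cKO, at 32.5 and 34.2 RPKM against 21.1 and 21.7 RPKM in the controls. Protein was not measured in these data. Markers of cortical neurons (10 genes, summed 1346 to 1448 RPKM) and of cortical progenitors (10 genes, summed 709 to 756 RPKM), the cells of the labelled tissue, were abundant in all 4 samples, and 0 of these 20 genes were called. Markers of diencephalic and hypothalamic cells differed between the groups, with summed levels of 16.8 and 28.4 RPKM in the controls and 13.8 and 9.13 RPKM in *Qk* cKO. Of these 10 genes, 7 were called lower in *Qk* cKO by edgeR's quasi-likelihood test, 6 by its exact test and 0 by DESeq2, and none was at 0 in all samples. The first of these tests called 0.377% of all tested genes lower. The list was chosen with earlier results of these data known, and the study itself reports several of these genes as changed. The count is therefore a description and not a separate check of the tissue. Of the markers of subpallial cells, blood, endothelial cells and pericytes, microglia and meningeal fibroblasts, 1 of 34 genes was called (*Ctss*, lower). *Xist*, the RNA of the inactive X chromosome, was at 57.1 and 64.5 RPKM in replicate 1 of control and *Qk* cKO and at 0.0265 and 0.00951 RPKM in replicate 2, so the sex of the embryos differed within each group in the same way.

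Splicing was measured as inclusion, the share of an event's junction tags that support the longer form or the inclusion of the exon, from 0 to 1, with the junctions that support inclusion averaged. Differences are given as *Qk* cKO minus control, on tags summed over the 2 samples of a group. An event was tested when the smallest sum of its junction tags, by isoform or by group, reached 20, which held for 13 of the 15 events. Called events passed Fisher's exact test at p below 0.01 and a Benjamini-Hochberg FDR below 0.1. This test used summed isoform tags, which add tags within the alternative part to those on its junctions, and it takes no account of the spread between samples. The family was brought together with results of this same comparison in view, so the differences of its members are described without p-values. Among all 11500 tested events 862 were called (7.50%; 3.97% with higher and 3.53% with lower inclusion in *Qk* cKO), and among the 13 of this family 2 were called, both in *Nrxn2* and both with higher inclusion in *Qk* cKO.

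The 24-nt exon of *Nrxn2* was both included and skipped in large shares of transcripts in control cortex and was included in most transcripts in *Qk* cKO cortex. The exon lies at the second alternatively spliced site of the gene, in the part that encodes the second of the laminin-neurexin-sex hormone binding globulin domains, which binds neurexophilins and dystroglycan, and is present only in alpha transcripts. Its inclusion was 0.490 and 0.593 in the controls and 0.918 and 0.831 in the *Qk* cKO samples. Both *Qk* cKO samples lay above both controls, and none of the 95% Wilson intervals of *Qk* cKO (0.863 to 0.952 and 0.764 to 0.883) reached those of the controls (0.409 to 0.572 and 0.514 to 0.668). The difference of the summed tags was 0.331. Of all 11500 tested events, 48 differed by at least as much in either direction.

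The 45-nt form was listed as a separate event with inclusion of 0.314 and 0.415 in the controls and 0.850 and 0.709 in *Qk* cKO, a difference of 0.413. This event was not independent of the former one, because both forms share the upstream junction and the first 24 nt, and tags on these parts entered both. The forms can be told apart by their downstream junctions. The junction of the 45-nt form held 0.324 and 1.22 tags in the controls and 4.44 and 1.46 tags in *Qk* cKO, while that of the 24-nt form held 72.6 and 93.7 tags in the controls and 140.0 and 128.0 tags in *Qk* cKO. The 45-nt form was therefore rare in every sample. Set against skipping by its own downstream junction alone, its inclusion was 0.00450 and 0.0194 in the controls and 0.265 and 0.0546 in *Qk* cKO, well below the values listed for the event, and these shares also move with the number of skipping tags. With the downstream junction alone, an alternative added after the data were seen, the 24-nt exon differed by 0.322 and stayed called, and the 45-nt form had too few tags to be tested. The event for the 21 nt between the 5′ splice sites had inclusion of 0.00444 and 0.0129 in the controls and 0.0308 and 0.0113 in *Qk* cKO, at a coverage of 7.45 tags, and was not tested either.

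Set out by the 3 junctions that leave the upstream or the alternative exon towards the next one, the forms of this site divided as follows. In control replicate 1, 50.2% of 144.7 tags came from the 24-nt form (95% Wilson interval 42.2 to 58.2) and 49.6% from skipping. In control replicate 2, 59.8% of 156.6 tags came from the 24-nt form (52.0 to 67.2) and 39.4% from skipping. In *Qk* cKO replicate 1 the 24-nt form reached 89.3% of 156.8 tags (83.5 to 93.2), with 7.86% skipping. In *Qk* cKO replicate 2 it reached 82.7% of 154.8 tags (76.0 to 87.9), with 16.3% skipping. The share of skipping was 44.5% ± 7.19 (SD, n = 2) in the controls and 12.1% ± 6.0 (SD, n = 2) in *Qk* cKO, and the 45-nt form held between 0.224% and 2.83% in the 4 samples. The intervals cover counting error only.

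**Figure D1:**
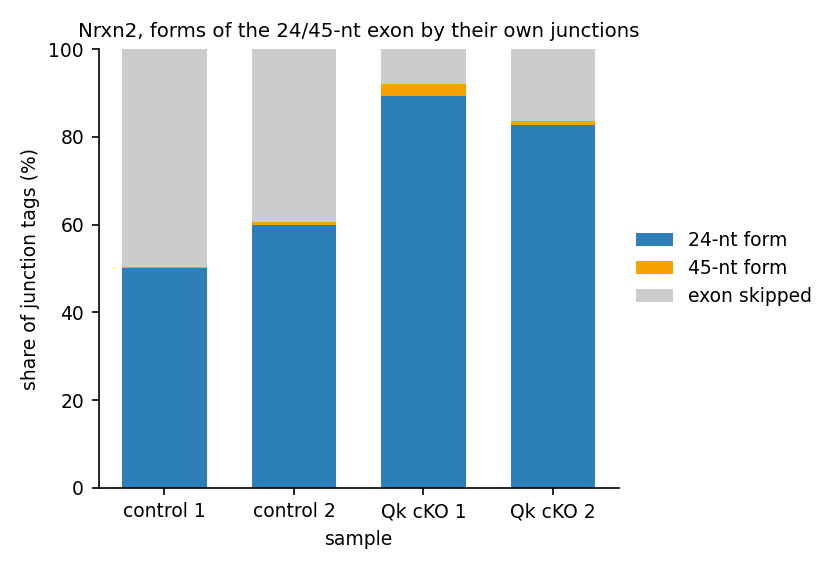
Share of junction tags (y axis, %) from the 24-nt form, the 45-nt form and skipping of the *Nrxn2* exon in each of the 4 samples (x axis). Bars are single samples; the grey part, skipping, is 49.6% and 39.4% in the controls and 7.86% and 16.3% in *Qk* cKO, and the 45-nt form is a thin band in each bar.

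The number of tags at this site was nearly the same in the groups while its division differed. In CPM, which scales tags to the tags on genes of the library, the 3 junctions together were at 3.49 and 4.13 in the controls and 3.65 and 3.77 in *Qk* cKO. The junction that skips the exon was at 1.73 and 1.63 CPM in the controls and 0.287 and 0.616 in *Qk* cKO. The junction of the 24-nt form was at 1.75 and 2.47 CPM in the controls and 3.26 and 3.12 in *Qk* cKO, so that both *Qk* cKO samples lay above both controls for this form and below both for skipping.

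The other alternative sites of *Nrxn2* differed little. At the first site, which precedes the 24-nt exon in the gene, exons of 30 and 72 nt follow each other, at chr19:6448255-6448284 and chr19:6450528-6450599. The 30-nt exon had inclusion of 0.800 and 0.811 in the controls and 0.741 and 0.765 in *Qk* cKO, a difference of -0.056. The 72-nt exon had 0.844 and 0.810 in the controls and 0.807 and 0.778 in *Qk* cKO (-0.031). These values average 2 unequal junctions. The upstream one, which skips the 30-nt exon, held 6 and 9 tags in the controls and 12 and 8 in *Qk* cKO. The downstream one held 59 and 85 tags in the controls and 80.0 and 76 in *Qk* cKO. By the downstream junction alone the difference was -0.023. The tandem event of both exons, 102 nt in all, had 0.856 and 0.831 against 0.818 and 0.780 (-0.040). In these events both *Qk* cKO samples were below both controls by small steps, and the Wilson intervals of all 4 samples overlapped. A pair of 3′ splice sites 3 nt apart at the start of the 72-nt exon was used alike, with inclusion between 0.739 and 0.833 in the 4 samples and a difference of 0.0024.

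Downstream of the 24-nt exon the pattern was as even. The 27-nt exon, at the third site, had inclusion of 0.822 and 0.816 in the controls and 0.829 and 0.847 in *Qk* cKO (0.018), on the smallest coverage among the *Nrxn2* cassette exons, 25.3 tags. The 90-nt exon, at the fourth site and known for its part in the choice between neuroligin and other partners, had 0.674 and 0.667 in the controls and 0.688 and 0.708 in *Qk* cKO. Its difference was 0.028, on a coverage of 445.9 tags, and the intervals of the 4 samples overlapped here as well. An alternative 3′ splice site that changes the last exon by 576 nt had inclusion of 0.887 and 0.878 in the controls and 0.877 and 0.924 in *Qk* cKO (0.019), with overlapping groups. All alternative parts of *Nrxn2* had a length that is a multiple of 3, from 3 to 576 nt.

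The 90-nt exon and the 24-nt exon lie in the same gene and were measured in the same libraries, yet their ranges differed in kind. Over the 4 samples the inclusion of the 90-nt exon spanned 0.667 to 0.708, and that of the 24-nt exon 0.490 to 0.918.

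**Figure D2:**
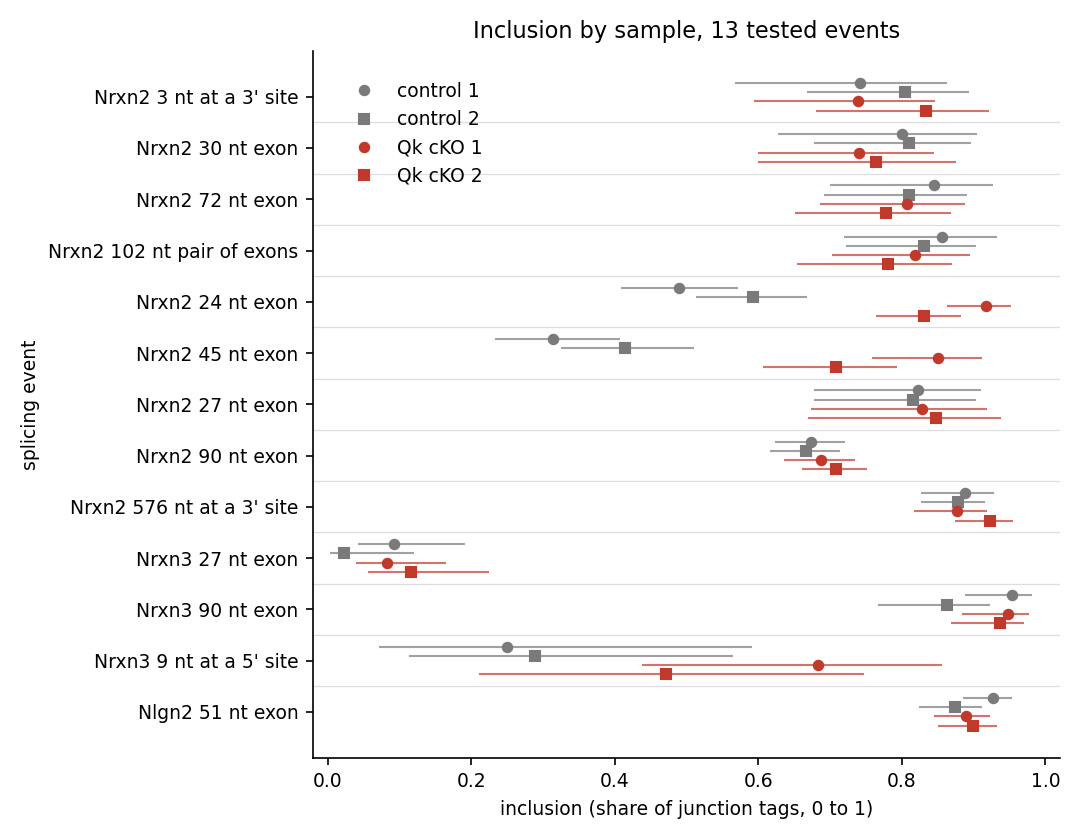
Inclusion (x axis, share of junction tags from 0 to 1) of the 13 tested events (y axis, ordered by gene and by place in the gene) in the 4 samples, with controls in grey and *Qk* cKO in red, circles for replicate 1 and squares for replicate 2. Horizontal lines are 95% Wilson intervals on junction tags, with the junctions that support inclusion averaged; the *Nrxn2* 24-nt and 45-nt rows, which share tags, are those in which the red intervals lie clear of the grey ones.

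*Nrxn3* had 3 tested events and 0 were called. Its 90-nt exon was included more than that of *Nrxn2* in every sample, with 0.954 and 0.862 in the controls and 0.948 and 0.936 in *Qk* cKO, a difference of 0.030 with overlapping groups. The 27-nt exon at chr12:89517906-89517932 was mostly skipped, with inclusion of 0.0927 and 0.0233 in the controls and 0.0834 and 0.116 in *Qk* cKO (0.033), again with overlapping groups. The 5′ splice site that adds the final 9 nt of the 88-nt form, against the 79-nt form, was used in shares of 0.250 and 0.290 in the controls and 0.683 and 0.471 in *Qk* cKO. The difference of 0.329 in these junction shares rested on a coverage of 20.4 tags, just above the minimum. Both *Qk* cKO samples lay above both controls, the Wilson intervals were wide (0.071 to 0.591 and 0.113 to 0.565 in the controls, 0.438 to 0.856 and 0.211 to 0.748 in *Qk* cKO) and overlapped, and the event was not called. The isoform tags that entered the test were 22.0 and 29.9 for the longer against 6.0 and 8.8 for the shorter form in the controls, and 39.9 and 38.7 against 5.0 and 5.0 in *Qk* cKO, so the groups differed less in these than in the junction shares.

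In the neuroligins, the 51-nt exon of *Nlgn2* was included in most transcripts, with 0.926 and 0.874 in the controls and 0.890 and 0.899 in *Qk* cKO. The *Qk* cKO values lay between the controls, the difference was -0.0075, and the coverage was 92 tags. A 77-nt exon listed for *Nlgn1*, absent from the GENCODE transcripts, was supported by 1 tag in all samples together, in control replicate 2, and was not tested. No event was listed for *Nlgn3*.

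Counted over the family, both *Qk* cKO samples lay on one side of both controls in 8 of the 13 tested events, 5 above and 3 below, while the same held for 37.9% of all 11500 tested events. These 8 are not separate observations, since the 24-nt and 45-nt events share tags, and so do the 30-nt, 72-nt and tandem events. The median size of the difference was 0.0310 in the family and 0.0256 over all tested events. Among cassette exons alone, 9.28% of 4600 were called, and 2 of the 9 of this family.

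**Figure D3:**
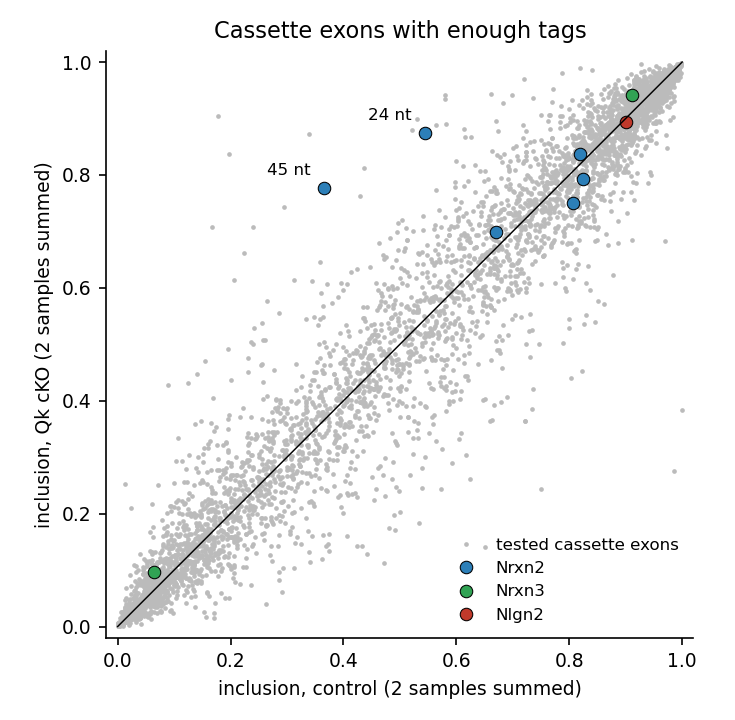
Inclusion in control (x axis) and *Qk* cKO (y axis), each on tags summed over 2 samples, of the 4600 tested cassette exons (grey points), with those of *Nrxn2* in blue, *Nrxn3* in green and *Nlgn2* in red; the line marks equal inclusion. The 24-nt exon (0.544 against 0.875) and the 45-nt event (0.365 against 0.778) of *Nrxn2* lie above the line, and the other 7 lie close to it. The 45-nt event shares its upstream junction with the 24-nt exon. By its own downstream junction the 45-nt form was rare in every sample.

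To place the *Nrxn2* 24-nt exon among other genes, its inclusion in the 4 samples was set against that of 2620 cassette exons in 1688 genes with a coverage of at least 50. The closest by mean absolute difference was a 129-nt exon of *Erbb2ip*, which encodes the epithelial scaffold erbin, with 0.514 and 0.633 in the controls and 0.912 and 0.867 in *Qk* cKO, a mean distance of 0.0263. A 65-nt exon of *Golga4*, which encodes a coiled-coil protein of the Golgi, followed at 0.0428, and a 129-nt exon of *Phldb1* at 0.0694. The likeness was taken over 4 samples and was largely fixed by the level of inclusion in each group.

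The steady-state levels of the 5 genes differed between genotypes by at most 0.18 on the log2 scale. Of the 18834 genes with at least 1 tag, 110 were called by edgeR's quasi-likelihood test (0.584%), 0.207% towards higher and 0.377% towards lower levels without *Qk*, and 0 of the 5 were. At an unadjusted p below 0.05, 2 of the 5 passed in this test, 1 in edgeR's exact test and 1 in DESeq2, where 8.76% of all genes passed in the first. In RPKM, which scales tags by transcript length and library size, the order of the levels was *Nlgn2*, *Nrxn2* and *Nlgn3*, *Nrxn3* and *Nlgn1*. The ranges of *Nrxn2* and *Nlgn3* overlapped, and the other neighbours in this order did not.

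*Nrxn2*, on chr19, was at 15.9 and 18.7 RPKM in the controls and 15.5 and 15.6 RPKM in *Qk* cKO. The log2 fold change was -0.14 (SE 0.062), and the difference came mainly from control replicate 2. Without that sample the log2 fold change was -0.024, while the difference of the 24-nt exon was 0.384. *Nrxn3*, on chr12, was at 7.69 and 8.37 RPKM in the controls and 8.20 and 7.99 RPKM in *Qk* cKO, with a log2 fold change of 0.025 (SE 0.062) and overlapping groups.

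Among the neuroligins, *Nlgn2*, which encodes the neuroligin of inhibitory synapses, had the highest level, with 29.8 and 32.3 RPKM in the controls and 27.3 and 27.4 RPKM in *Qk* cKO. The log2 fold change of *Nlgn2* was -0.17 (SE 0.054). *Nlgn1*, the neuroligin of excitatory synapses, had the lowest level, with 4.09 and 3.83 RPKM in the controls and 3.47 and 3.45 RPKM in *Qk* cKO, and a log2 fold change of -0.18 (SE 0.11). In both genes the *Qk* cKO samples were below both controls. *Nlgn3*, on the X chromosome, was at 13.9 and 15.6 RPKM in the controls and 15.6 and 13.5 RPKM in *Qk* cKO, a log2 fold change of -0.0024 (SE 0.090), and its order over the samples did not follow that of *Xist*.

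Both *Qk* cKO samples were below both controls in 3 of the 5 genes (*Nrxn2*, *Nlgn1* and *Nlgn2*), and above in 0. Of all tested genes, 20.6% lay below and 36.9% lay apart in either direction. The median log2 fold change was -0.14 in the family and -0.0025 over all tested genes. The summed diencephalic and hypothalamic markers given above were also lower in both *Qk* cKO samples, and their part in these levels was not tested.

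**Figure D4:**
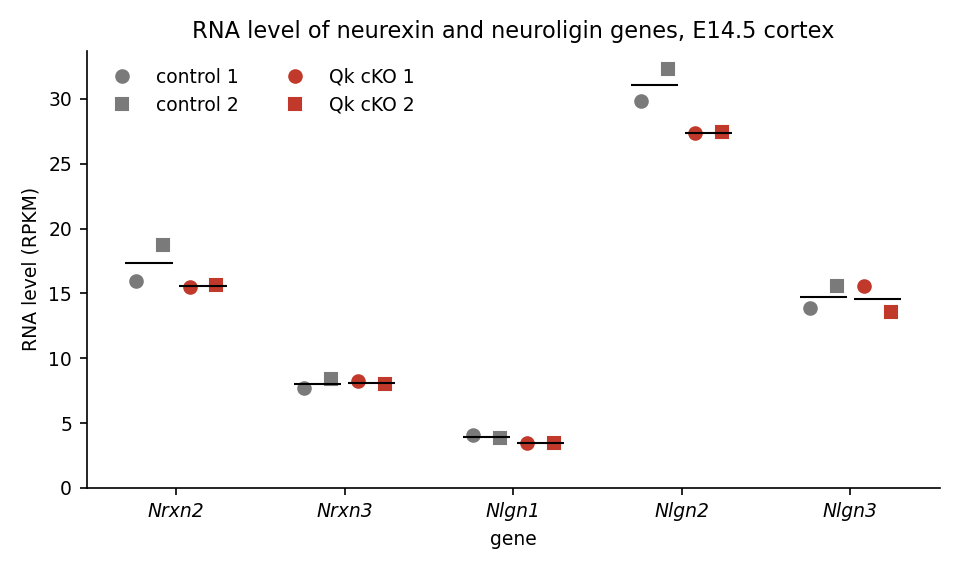
RNA level (y axis, RPKM, from 0) of the 5 genes in each control (grey) and *Qk* cKO (red) sample, with circles for replicate 1, squares for replicate 2 and short lines for the mean of 2 samples. The groups of *Nrxn2*, *Nlgn1* and *Nlgn2* stand apart by little (means of 17.3 against 15.6 RPKM in *Nrxn2* and 3.96 against 3.46 RPKM in *Nlgn1*), and those of *Nrxn3* and *Nlgn3* overlap.

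Most genes that work with neurexins and neuroligins were expressed at this stage. Levels were below 1 RPKM for 6 of the 25 secreted and postsynaptic partners and 1 of the 6 contactin-associated proteins. Of the 70 genes, in 5 lists, 0 were called by edgeR's quasi-likelihood test, its exact test or DESeq2. At an unadjusted p below 0.05 in the first of these, 8 passed. Of the 25 secreted and postsynaptic partners of neurexins, the most abundant were *Clstn1*, a calsyntenin, at 97.8 to 110.2 RPKM over the 4 samples, and *Lphn1*, a latrophilin, at 49.9 to 52.2 RPKM. Of the 21 inhibitors and scaffolds of neuroligins, they were *Dlg4*, the PSD-95 scaffold, at 83.9 to 92.0 RPKM and *Dlgap4*, a scaffold bound by it, at 25.7 to 29.1 RPKM. The 15 presynaptic scaffolds of neurexins included *Apba2*, a Mint adaptor, at 79.7 to 86.8 RPKM. Each of these 5 genes had a higher RPKM than *Nrxn2* and *Nrxn3* in every sample.

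The median log2 fold changes of the lists were near that of all genes, -0.070 for the secreted and postsynaptic partners, -0.045 for the neuroligin scaffolds and -0.020 for the presynaptic scaffolds. The 6 contactin-associated proteins of the neurexin superfamily had a median of 0.052, led in level by *Cntnap2* (at most 13.6 RPKM) and *Cntnap4* (6.14 to 7.60 RPKM). The 3 other STAR proteins had a median of -0.014. *Khdrbs1* was at 90.5 to 96.8 RPKM and *Khdrbs3* at 62.9 to 70.7 RPKM, with overlapping groups in both.

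The cerebellins *Cbln1* and *Cbln2*, secreted proteins that bridge neurexins to glutamate receptors, were called with some of the other settings, as was the scaffold *Dlg1* with one of them, and are named after their values were seen. *Cbln1* was at 9.07 and 13.1 RPKM in the controls and 8.55 and 6.72 RPKM in *Qk* cKO, a log2 fold change of -0.52 (SE 0.15) that was not called (adjusted p = 0.199, edgeR's quasi-likelihood test). *Cbln2* was at 6.76 and 8.30 RPKM in the controls and 5.62 and 5.15 RPKM in *Qk* cKO, a log2 fold change of -0.47 (SE 0.12; adjusted p = 0.151 in the same test). In both genes control replicate 2 was highest, as it was for the summed diencephalic and hypothalamic markers (28.4 RPKM), whose part in these values was not tested.

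In splicing, the partners had 126 tested events in 32 genes, of which 19 in 6 genes were called (15.1%, against 7.50% of all tested events), 15 with higher and 4 with lower inclusion in *Qk* cKO. The genes were *Clstn1*, *Lphn2*, *Magi1*, *Dlgap4*, *Epb4.1* and *Cask*. Many of the 19 are overlapping events of one gene that share tags, so the count is not one of separate exons. The lists were chosen with earlier results of these data known. The study names *Cask*, *Clstn1* and *Lphn2* (there under its newer name *Adgrl2*) among its splicing targets. The share of called events is therefore a description of these lists and not a test of them. The events of 3 genes are named after their values were seen, as those also called by edgeR's interaction test, which asks whether the isoforms respond differently to genotype and uses the spread between samples.

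*Cask* encodes the scaffold that binds the intracellular end of neurexins. Its 36-nt exon had inclusion of 0.799 and 0.856 in the controls and 0.523 and 0.549 in *Qk* cKO, a difference of -0.291 (adjusted p = 0.0254, edgeR's interaction test). *Clstn1* had a 57-nt exon with 0.915 and 0.910 in the controls and 0.770 and 0.806 in *Qk* cKO (-0.126; adjusted p = 0.0254 in the same edgeR test). *Lphn2*, a latrophilin, had a 129-nt exon with 0.700 and 0.644 in the controls and 0.904 and 0.855 in *Qk* cKO (0.204; adjusted p = 0.0761 in the same edgeR test). The tandem event of *Lphn2* that holds this exon and a following one had 0.450 and 0.371 in the controls and 0.744 and 0.654 in *Qk* cKO (0.283; adjusted p = 0.0683 in the same edgeR test). The exons of *Cask* and *Clstn1* were thus included less in both *Qk* cKO samples, and that of *Lphn2*, like the *Nrxn2* 24-nt exon, was included more. None of these genes was called for its RNA level. *Cask* was at 25.0 and 26.3 RPKM in the controls and 24.5 and 25.7 RPKM in *Qk* cKO. *Lphn2* was at 29.0 and 28.3 RPKM against 27.6 and 30.6 RPKM, with overlapping groups. *Clstn1* was lower in both *Qk* cKO samples, at 99.5 and 97.8 RPKM against 106.4 and 110.2 RPKM (log2 fold change -0.12).

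By the same interaction test, which called 0.557% of all tested events, the 2 called events of *Nrxn2* were called as well. These 2 events share most of their tags and are not separate observations. The test was run on the comparison that was in view when the family was brought together, so these calls are a description too.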

How the data were processed

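Per the study's methods, OLego placed paired reads on mm10 and on known exon junctions, and Quantas counted genes and events (versions are not given in the sources used here). The authors deposited, per sample, estimated counts of tags per gene, the RPKM that Quantas made from them, and estimated counts of tags per isoform and junction of each event. How tags shared by overlapping forms were assigned is part of these values. Samples were grouped by their labels. Members and lists were chosen with earlier results of these data known. The study describes the control and *Qk* cKO embryos as littermates, and the labels do not say which embryos shared a litter. The p-values of edgeR measure the spread between these samples only. Those of Fisher's exact test cover counting error and not that spread.

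For RNA levels, rounded tags of genes with at least 1 tag were scaled by TMM, tested in R 4.3.3 with edgeR 4.0.16 (quasi-likelihood) and called at p below 0.01 and FDR below 0.1. Inclusion followed the authors' definition for each event type (for a cassette exon, the mean of its 2 junctions over that mean plus skipping). Fisher's exact test was run on rounded isoform tags of the summed replicates, at a coverage of at least 20, with adjustment within each of 6 event types. Other settings were DESeq2 1.42.0, the exact test of edgeR, filterByExpr, upper-quartile scaling, junction tags only, coverage of 10 or 50, edgeR's interaction test, a replicate block, adjustment over all types, the mean of the replicates' inclusion and leaving out each sample. The scripts were tested on simulated data. Total tags per sample were 41425889 and 37942046 in the controls and 42994832 and 41072024 in *Qk* cKO. Wilson intervals have a confidence level of 95%.

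Text names followed a rule: all 5 genes, their called events and the best covered tested event of each type per gene, in each partner list the called genes and the 2 with the highest mean RPKM, and the 3 cassette exons most like the called *Nrxn2* exon. The other events of the family, *Xist*, *Ctss*, *Qk*, *Cbln1*, *Cbln2*, *Dlg1* and the genes with called partner events are named outside it. One gene that the rule names and some exon sequences are not reported here. Promoter, intron and protein sequences are not used here.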

Additional observations from a re-analysis of the deposited data

How the results depend on the processing

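The count of called genes of the family was 0, and of its called events 2, under each alternative run, except that with the downstream junction tags only, added after the data were seen, 1 event was called, because the 45-nt form then had too few tags to be tested. Called partner genes numbered 0 under 5 settings and 2 with the replicate block (*Cbln1* and *Cbln2*). Without each sample in turn they ranged from 0 to 3, the 3 being *Cbln1*, *Cbln2* and *Dlg1* without *Qk* cKO replicate 1. The difference of the *Nrxn2* 24-nt exon ranged from 0.281 to 0.384 without each sample in turn. That of the 45-nt event, which shares tags with the 24-nt exon, ranged from 0.344 to 0.486. Signs that turned belonged to small differences. Without each sample in turn, the log2 fold change of *Nrxn3* ranged from -0.033 (without control replicate 1) to 0.083 and was -0.0077 without *Qk* cKO replicate 1, and that of *Nlgn3* ranged from -0.12 to 0.10 (without *Qk* cKO replicate 2) and was 0.077 without control replicate 2. The difference of the *Nlgn2* 51-nt exon ranged from -0.0326 to 0.0194 (without control replicate 1). The *Nrxn2* 576-nt 3′ site ranged from -0.00532 (without *Qk* cKO replicate 2) to 0.0417, and the 3-nt 3′ site from -0.0398 (without *Qk* cKO replicate 2) to 0.0541, with -0.0227 without control replicate 1. Over all genes, calls numbered 110, 57 with the exact test, 81 with DESeq2, 11 with filterByExpr and 192 with the replicate block, and 0 to 428 without 1 sample (0 without control replicate 2, 428 without *Qk* cKO replicate 1). The edgeR interaction test called 64 of the 11500 tested events, against 862 with Fisher's exact test.

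Over all chromosomes, samples with the same number deviated together to some degree (r = 0.303 over 12928 genes), and *Xist* differed between the numbers in both groups. On autosomes (r = -0.0808 over 12442 genes) and in inclusion (r = -0.0140 over 11496 events) they did not. The numbers were not read as pairs in the main tests. The replicate block changed no call within the family.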
